A study of Mus musculus with 6 samples.

Results

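DNA methylation is written, copied and read by a small set of proteins, and the 9 genes described here are Dnmt1, Dnmt3a, Dnmt3b, Dnmt3l, Uhrf1, Mbd1, Mbd2, Mbd3 and Mbd4. They were taken as every probe set whose gene symbol, old or current, is 1 of these names. A probe set is a group of short oligonucleotides on an Affymetrix array that together measure a transcript. The names matched 24 probe sets, 21 of 22626 on the MOE430A array and 3 of 22511 on the MOE430B array, for 9 of 18193 genes with 1 symbol. Probe sets were matched by name only, without any measured value. The list of genes itself was chosen with earlier results of these data known.

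The cells were DR4 embryonic fibroblasts of the mouse, which serve as a feeder layer under embryonic stem cells. Per the labels they came from day 15 embryos and were grown on 0.1% gelatin in D-MEM with 15% serum and LIF, a cytokine for stem cell culture, at 37 C and 5% CO2. A single condition was measured, in 3 replicates on each array type (6 samples), to serve as the control profile for J1, R1 and V6.5 stem cells, which are not analysed here. Per the labels, the RNA of replicate 1 was prepared from 12x10e6 cells (notation as labelled) and reached 2.4 ug/ul, while that of replicates 2 and 3 was prepared from 3x10e6 cells each and reached 3.0 ug/ul. The labels used here give no genotype and no sex, do not mention any treatment to arrest division, and do not say that the replicates were separate cultures. The p-values given here therefore cover the variation among these arrays, which could be purely technical.

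In mammals the methyl group is put on cytosine, mostly where a guanine follows it (CpG). Dnmt3a and Dnmt3b place new marks, and Dnmt3l, which has no catalytic activity of its own, assists them in germ cells and early embryos. Dnmt1 copies the marks onto the new strand after replication, and Uhrf1 brings it to half-methylated sites. The MBD proteins share a methyl-CpG binding domain: Mbd1 and Mbd2 bind methylated DNA and repress genes, Mbd3 is a subunit of the NuRD remodelling and deacetylase complex with little preference for methylated DNA, and Mbd4 is a glycosylase that removes mismatched thymine at CpG sites.

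The genes' own start regions differed widely in CpG content, and 4 stretches are shown here as examples. A pair is from genes above the array median (Dnmt1 and Mbd3) and a pair from genes not above it (Uhrf1 and Dnmt3l). They do not cover the range, which ran to 40 CpG in a Dnmt3a stretch that is not shown. Each is the 250 bases before the most upstream start in RefSeq's GRCm38.p6 table, 5′ to 3′, with CpG in capitals.
Dnmt1 (chr9:20959889-20960138, minus strand): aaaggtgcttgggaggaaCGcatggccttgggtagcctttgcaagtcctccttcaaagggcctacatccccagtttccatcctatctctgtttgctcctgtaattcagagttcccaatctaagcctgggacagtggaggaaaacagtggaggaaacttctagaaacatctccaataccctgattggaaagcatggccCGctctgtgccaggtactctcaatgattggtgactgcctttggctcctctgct
Mbd3 (chr10:80399532-80399781, minus strand): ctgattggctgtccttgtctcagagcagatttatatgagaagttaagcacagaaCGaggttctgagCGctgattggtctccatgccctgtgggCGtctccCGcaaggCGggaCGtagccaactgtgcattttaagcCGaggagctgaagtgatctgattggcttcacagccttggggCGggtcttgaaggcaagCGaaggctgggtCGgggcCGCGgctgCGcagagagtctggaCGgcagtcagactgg
Uhrf1 (chr17:56303087-56303336, plus strand): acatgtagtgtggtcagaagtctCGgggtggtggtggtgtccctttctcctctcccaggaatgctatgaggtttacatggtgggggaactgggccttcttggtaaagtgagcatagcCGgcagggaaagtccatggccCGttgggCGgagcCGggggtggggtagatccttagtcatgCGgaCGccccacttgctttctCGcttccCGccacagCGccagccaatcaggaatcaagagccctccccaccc
Dnmt3l (chr10:78042037-78042286, plus strand): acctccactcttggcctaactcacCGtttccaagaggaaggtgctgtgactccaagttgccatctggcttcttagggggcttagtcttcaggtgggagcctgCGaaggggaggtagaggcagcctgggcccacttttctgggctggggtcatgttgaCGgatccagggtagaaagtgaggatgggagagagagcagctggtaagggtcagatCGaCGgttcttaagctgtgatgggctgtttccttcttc

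The Dnmt1 stretch holds 2 CpG, the Dnmt3l stretch 5, the Uhrf1 stretch 10 and the Mbd3 stretch 14. Whole windows of 300 bases (250 before and 50 after a start) were also counted. Member windows on chromosome 18 were left out, which left 14 windows of 7 of the 9 members. Mbd1 and Mbd2, also above the array median, have no window here. Across all 32851 windows the median was 7 CpG, with quartiles of 3 and 20. Dnmt1 had 3 windows, with 2, 12 and 33 CpG from the most upstream to the most downstream. The 3 Dnmt3l windows held 6, 4 and 3 CpG, all under that median. The 3 Dnmt3a windows held 46, 47 and 18, the Dnmt3b window 30, the Mbd4 window 25, the Mbd3 window 22, and the 2 Uhrf1 windows 12 and 33. Windows with more CpG than the upper quartile were therefore found both in genes above the array median, Dnmt1 (33) and Mbd3, and in genes not above it, Dnmt3a, Dnmt3b, Mbd4 and Uhrf1 (33). The stretches printed for Dnmt1 and Uhrf1 come from their most upstream windows, which held the fewest CpG of each gene. Methylation itself was not measured, nor was it measured which start these cells use.

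**Figure D1:**
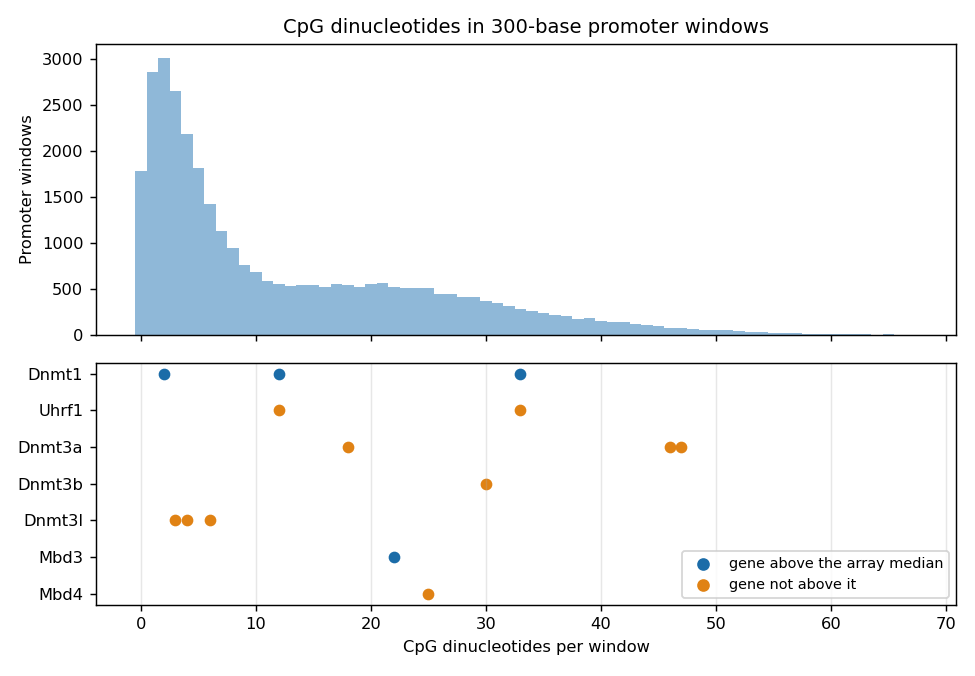
Number of CpG dinucleotides in windows of 300 bases around transcript starts. No window of Mbd1 or Mbd2 is included among the members. The upper bars count all 32851 windows by CpG number, with a median of 7, and the lower points are the 14 windows of 7 members, in blue for the genes above the array median (Dnmt1 and Mbd3) and in orange for the others, which overlap in CpG number.

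A pair of motifs was searched on both strands of these windows, chosen after the sequences were seen. The E2F motif, bound by the factors that drive genes of DNA replication, was searched as TTTCCCGC, TTTGGCGC, TTTCGCGC and TTTGCCGC, and 2.26% of all windows held a match. Among members the most downstream Dnmt1 window held 2 matches and the second Uhrf1 window held 1. The NRF1 motif, CGCATGCG at its core, is that of a factor known to avoid methylated sites, and was in 1.87% of all windows. Among members it was found once in each of the 2 downstream Dnmt1 windows and once in the second Uhrf1 window. No E2F match shared a base with an NRF1 match in these windows, and the 4 printed stretches hold neither motif. A match describes letters only and is not shown to be a bound site.

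The first question was which of the 9 genes these fibroblasts transcribe. Values are MAS5 signals, Affymetrix's summary of a probe set on a linear scale, and a probe set was counted as above the floor when its signal exceeded the median signal of the array on all 3 arrays. That median lay between 683 and 732 on MOE430A and between 846 and 913 on MOE430B. Probe sets bind with different brightness, so the order of signals between probe sets is not read as an order of transcript amounts and serves only to choose which genes of a list are named. Fewer cells that make a transcript and less transcript per cell cannot be told apart in bulk RNA. Dnmt1, Mbd1, Mbd2 and Mbd3 were above the floor, and Dnmt3a, Dnmt3b, Dnmt3l, Uhrf1 and Mbd4 were not. That made 4 of 9 members (44.4%), beside 54.8% of all genes with 1 symbol. By probe sets, 6 of 21 on MOE430A were above it (28.6%), beside 42.5% of all on that array, and 0 of 3 on MOE430B, beside 37.4%. A probe set under the median is not thereby shown to be silent.

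**Figure D2:**
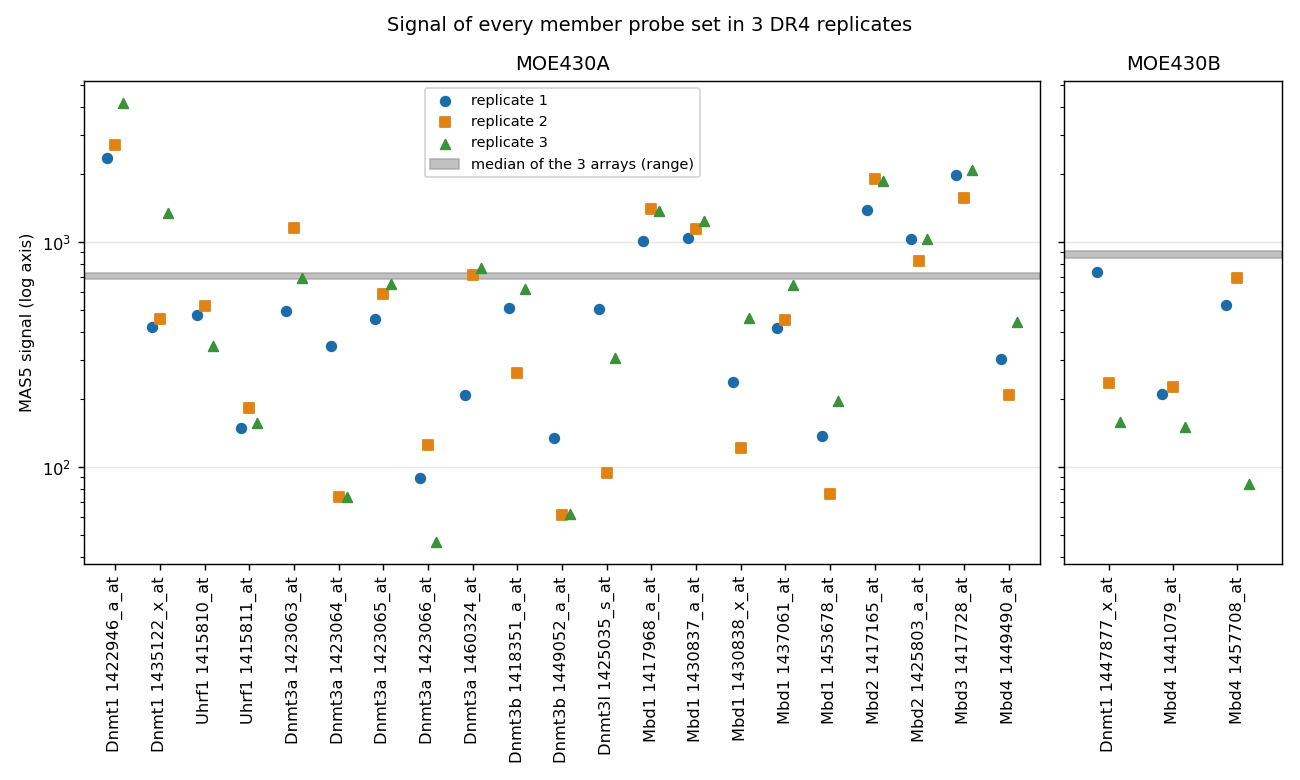
MAS5 signal (log axis) of the 24 member probe sets on MOE430A (left) and MOE430B (right). Each point is 1 array, by replicate, and the grey band is the range of the array medians. The points of 1 Dnmt1, 2 Mbd1, 2 Mbd2 and 1 Mbd3 probe set all lie above the band, and 3 probe sets, of Dnmt1 and Dnmt3a, have points on both sides of their array's median.

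Dnmt1, the maintenance methyltransferase, had signals of 2360.0, 2705 and 4155 in replicates 1, 2 and 3 on the MOE430A probe set 1422946_a_at (3073 ± 952, SD, n = 3). All 3 arrays were at least 3.44 times their array's median, and replicate 3 was the highest. A second probe set, 1435122_x_at, had 420.0, 456 and 1342, and was above the floor in replicate 3 only. Its suffix marks probes that may bind other transcripts as well. The MOE430B probe set 1447877_x_at, of the same suffix, ran in the other order, at 736, 236 and 158, under the floor on all arrays. Thus 2 of the 3 Dnmt1 probe sets were highest in replicate 3 and 1 was lowest there.

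Uhrf1, the partner that brings Dnmt1 to replicated DNA, stayed under the floor on both of its probe sets. Signals were 472, 521 and 344 on 1415810_at (446 ± 91.2) and 148, 182 and 157 on 1415811_at (163 ± 17.6). Replicate 2 was the highest on both, and the second probe set varied little (a coefficient of variation of 10.8%). Markers of dividing cells, with which both genes are known to rise, were above the floor in 10 of 14 cases. They included the ribonucleotide reductase subunit Rrm2 (4639 ± 1720), the mitotic kinase Cdk1 (3826 ± 524), cyclin A2 (Ccna2, 2117 ± 123) and the topoisomerase Top2a (2039.8 ± 294). Bub1 (153 ± 48.0), Mcm3 (705 ± 202) and Mki67 (732 ± 181) were not above it. Their summed signal was 22305, 20627 and 20192 in replicates 1, 2 and 3. That order rested on Rrm2 (6562, 4110.0 and 3246), and without it the other 13 summed to 15743, 16517 and 16946, a sum chosen after the data were seen. Of their 14 MOE430A probe sets tested between replicate 1 and the others, 7 were higher and 7 lower in replicate 1, with a median log2 difference of -0.01. Their part in the Dnmt1 values was not tested.

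Dnmt3a, a de novo enzyme, had 5 probe sets on MOE430A, none above the floor on all 3 arrays. Probe set 1423063_at had 492, 1156 and 694, above the median in replicate 2 only. Probe set 1460324_at had 210.1, 712 and 769, above it in replicates 2 and 3. Probe set 1423065_at had 455, 589 and 652, all under the median.
On these 3 probe sets replicate 1 was the lowest. On 1423064_at it was instead the highest, at 344 against 73.8 and 73.6, and on 1423066_at the signals were 89.8, 125 and 46.6. The probe sets of this gene thus gave no single order of the replicates.

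Dnmt3b, the other de novo enzyme, had 507, 261 and 621 on 1418351_a_at (463 ± 184). On 1449052_a_at it had 134, 61.3 and 61.7 (85.8 ± 42.0). Both lay under the floor on every array. Dnmt3l had 506, 93.8 and 307 on its only probe set, 1425035_s_at (302 ± 206), also under the floor on every array and 5.39-fold apart between its highest and lowest array. The _s_at suffix marks probes shared by several transcripts. Dnmt3l was the only member under a fixed floor of 200 on at least 1 array in every probe set.

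Among the readers, Mbd1 was above the floor through 2 of its 5 probe sets. It had 1015, 1406 and 1375 on 1417968_a_at (1265 ± 217), lowest in replicate 1. On 1430837_a_at it had 1044, 1149 and 1242 (1145 ± 98.7), again lowest in replicate 1 and with the smallest log2 SD of the 24 probe sets, 0.12. The other 3 lay under the floor on every array, with means of 137 (1453678_at), 274 (1430838_x_at) and 503 (1437061_at). The files do not show which transcript forms of Mbd1 each probe set reads.

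Mbd2 was above the floor on both of its probe sets. Signals were 1388, 1905 and 1872 on 1417165_at (1722 ± 289), lowest in replicate 1. On 1425803_a_at they were 1036, 821 and 1033 (963 ± 123), lowest in replicate 2. The replicates were thus ordered differently by probe sets of the same gene, whose highest and lowest arrays were 1.37-fold and 1.26-fold apart.

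Mbd3, the NuRD subunit, had 1994, 1574 and 2098 on its single probe set, 1417728_at (1889 ± 277), at least 2.30 times the median of each array. Mbd4, the glycosylase, was under the floor on all 3 of its probe sets. It had 303, 209 and 443 on 1449490_at on MOE430A. On MOE430B it had 211, 227 and 151 on 1441079_at, and 524, 691 and 84.2 on 1457708_at, an 8.20-fold range that was the widest of the 24 probe sets. That range rested on replicate 3.

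The floor decided how many members counted. With the 75th percentile as the floor only Dnmt1 remained (1 of 9, beside 30.7% of all genes), on 1 probe set. With a fixed signal of 200 all but Dnmt3l counted (8 of 9, beside 79.7% of all genes). With the brightest tryptophan control (bacterial, without a mouse target) as the floor, the same 4 genes counted as with the median (beside 44.0% of all genes). The statement that Dnmt3a, Dnmt3b, Uhrf1 and Mbd4 were not above the floor therefore did not hold with the fixed signal of 200. It had to hold with the 75th percentile, which lies above the median. The tryptophan floor added little, because on MOE430A it lay between 614 and 786, near the median. Without replicate 1, Dnmt3a joined the 4 through 1460324_at.

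The spread between replicates is the error of such a control profile. Over the 21 member probe sets on MOE430A the median SD was 0.51 on the log2(signal + 16) scale, beside 0.36 over all probe sets of that array. Members were above the floor less often (28.6%, beside 42.5% of all), and the part of brightness in their spread was not tested. The 6 above the floor had SDs from 0.12 to 0.42, beside a median of 0.24 over all probe sets above it. Of these 6, Dnmt1 varied most, and 15.4% of all probe sets above the floor varied more. None of the 6 was over 2-fold apart between any arrays. Of all 21, 11 were over 2-fold apart, beside 35.6% of all probe sets. Replicate 3 was the highest in 11 of 21, beside 38.0% of all probe sets, replicate 2 in 6 and replicate 1 in 4.

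The labels set replicate 1 apart by its cell number and RNA concentration, so it was compared with replicates 2 and 3. On MOE430B the instrument records also give replicate 1 another station than replicates 2 and 3. Station and replicate 1 cannot be told apart on that array type. No member passed the test. By limma, 0 of the 7 member probe sets tested on MOE430A passed an adjusted p of 0.05 (Benjamini-Hochberg), beside 78 of 11086 over the array (0.704%). Without the filter on dim probe sets all 21 members were tested. None of them was called. No member probe set on MOE430B was bright enough to be tested, and the count of calls there was 0 of 10615 (0.0%) in limma, although 766 had an unadjusted p under 0.05. With 1 array against 2, limma takes the single array to vary as the pair does. On simulated data, 19.8% of log2 changes of 1 and 94.4% of log2 changes of 2 were called on MOE430A, so smaller changes could be missed. Of the simulated calls on MOE430A, 8.58% were false. The simulated variances came from the fit with the filter, so these shares hold for that setting only. On MOE430B, 0.1% of log2 changes of 2 and 0.9% of log2 changes of 3 were called. Large changes would thus nearly always be missed there, and the absence of calls on MOE430B shows nothing about them.

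Among the 7 tested after the filter, the lowest p was that of Dnmt3a 1423063_at, whose log2 difference was -0.84 ± 0.39 (SE, adjusted p = 0.55 by limma). This probe set passed the filter only through replicate 2, the single array on which it exceeded the median, so its place among the 7 is not independent of that difference. Dnmt1 1422946_a_at followed at -0.50 ± 0.38 (adjusted p = 0.84). Within the scan day that replicates 1 and 2 shared, the Dnmt1 difference was -0.20, and it was -0.81 against replicate 3 alone, which was scanned on another day and station. For Dnmt3a the same values were -1.21 and -0.48. Mbd1 had -0.45 ± 0.37 on 1417968_a_at and -0.19 ± 0.37 on 1430837_a_at, and Mbd2 had -0.44 ± 0.37 on 1417165_at. Mbd2 on 1425803_a_at had 0.17 ± 0.37 and Mbd3 had 0.13 ± 0.37. Without the filter, lower p-values were found on other probe sets. Dnmt3a 1423064_at was 2.00 ± 0.38 higher in replicate 1 (adjusted p = 0.73 by limma), and Dnmt3a 1460324_at had -1.74 ± 0.38 (adjusted p = 0.75), so probe sets of this gene differed in sign. On MOE430B, Dnmt1 1447877_x_at was 1.84 ± 0.53 higher (adjusted p = 0.60 by limma), against the sign of 1422946_a_at. Of all 21 members on MOE430A, 9 were higher and 12 lower in replicate 1, with a median of -0.01, beside 49.4% higher and a median of -0.0084 over all 22626. Fibroblast and mesenchyme markers were lower in replicate 1 on 17 of 22 MOE430A probe sets tested, with a median of -0.30 and none called. Over all 11086 tested, 48.9% were higher, with a median of -0.011. The part of these markers in the member values was not tested.

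**Figure D3:**
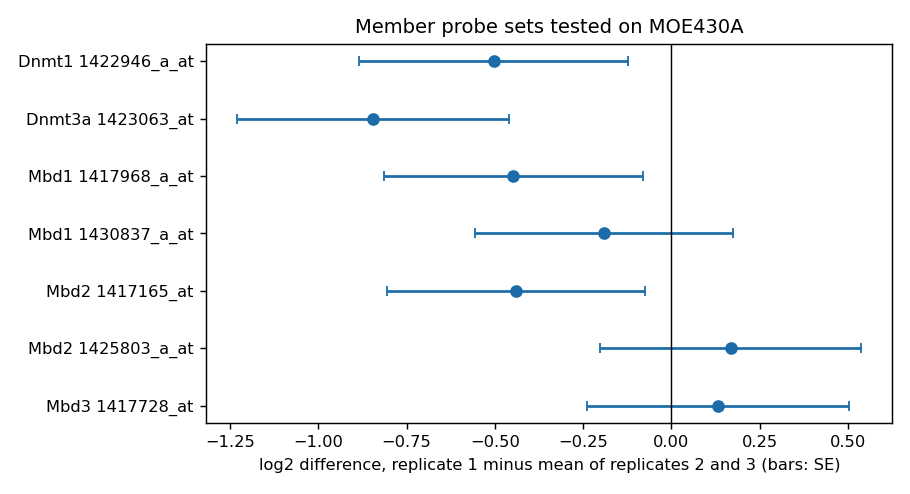
Log2 difference of replicate 1 from the mean of replicates 2 and 3 for the 7 member probe sets tested on MOE430A. Points are limma estimates and bars their SE. Values run from -0.84 (Dnmt3a) to 0.17 (Mbd2 1425803_a_at), and none passed the threshold.

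Replicate 3 on MOE430A was also set against replicates 1 and 2, because its array alone was scanned on another day; this comparison was chosen after the data were seen. Limma called 21 of 11086 probe sets (0.189%) and 0 of the 7 members, none of which had an unadjusted p under 0.05. Dnmt1 1422946_a_at was 0.71 ± 0.35 higher on the log2 scale in replicate 3 (adjusted p = 0.69), and the other 6 lay between -0.12 and 0.24. Scan day and replicate 3 cannot be told apart on this array type.

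Other genes of the pathway were counted by lists, read against 54.8% of all genes. Of the NuRD partners of Mbd2 and Mbd3, 10 of 10 were above the floor. They included the remodeller Chd3 on MOE430B (11197 ± 620.4), the small subunit Cdk2ap1 (9379 ± 935) and the histone-binding Rbbp7 (8517 ± 1604) and Rbbp4 (8268 ± 1641). Of the Mbd1 partners both were, the H3K9 methyltransferase Setdb1 (1723 ± 76.7) and Atf7ip (922 ± 439), the latter through another probe set than this one. Of the maintenance partners, which act with Dnmt1 and Uhrf1 at replicated DNA, 8 of 10 were. Among them were the H3K9 methyltransferases Ehmt1 on MOE430B (15603 ± 562) and Ehmt2 (6508 ± 789), the deubiquitinase Usp7 (4401 ± 695) and the deacetylase Hdac1 (4388 ± 561). Cdca7 (78.9 ± 43.4), a partner of the remodeller Hells, and its relative Cdca7l (418 ± 116) were not. By at least 1 probe set each, all listed NuRD partners were thus above the floor, as were Mbd2 and Mbd3. Of the partners' 29 probe sets, 19 were above it. No protein or complex was measured.

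Of 5 further genes for methyl-CpG binding proteins (12 probe sets, of which 6 were above the floor), 4 lay above the floor. These were the zinc finger genes Zbtb38 (5332 ± 251) and Zbtb4 (3810 ± 532) and the Uhrf1 relative Uhrf2 (4919 ± 1232), all on MOE430B, and Zbtb33, with 561 ± 101 on its brightest MOE430A probe set and counted by its other one. Mbd6 was not (555 ± 289). The 4 were also above the highest tryptophan control and the 75th percentile.

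Genes of demethylation were above the floor in 6 of 8 cases. The glycosylase Smug1 on MOE430B had 4011 ± 526, the stress genes Gadd45g and Gadd45b had 2516 ± 242 and 2389 ± 363, and the dioxygenase Tet3 on MOE430B had 2321 ± 1114. Tet1 and Tet2, named here after their values were seen, also counted, each by 1 probe set. Tet1 had 540.0 ± 263 on its brightest MOE430A probe set, not above the floor, and counted by another of its 4. Tet2 counted by 1 of 2, on MOE430B (1640 ± 166). Apobec1 (780 ± 132) and Gadd45a (552 ± 18.7) did not. Above the highest tryptophan control were 3, Smug1, Gadd45b and Gadd45g, and no Tet gene. That control was between 1989 and 2348 on MOE430B and between 614 and 786 on MOE430A. It is therefore a much higher floor for genes valued on MOE430B, such as Tet2 and Tet3. No oxidised or unmethylated cytosine was measured.

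Of the genes that supply the methyl donor, 4 of 6 were above the floor. The hydrolase Ahcy had 5697 ± 1104, the methionine synthase Mtr on MOE430B 5573 ± 1127, Shmt2 2247 ± 514 and Mat2b 1594 ± 510.4. The liver enzyme Mat1a (140.4 ± 85.7) and Shmt1 (761 ± 851) were not. Of 3 imprint protection genes, the corepressor Trim28 was (5479.8 ± 239), and the oocyte and stem cell factors Dppa3 (547 ± 197) and Zfp57 (78.7 ± 3.68) were not. Trdmt1, once named Dnmt2 and now known to methylate transfer RNA, was not either (621 ± 82.6).

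Germline genes whose promoters are known to be methylated in somatic cells were above the floor in 0 of 15 cases. They include Asz1 (679.8 ± 147), Brdt (168 ± 129) and the germ cell RNA-binding gene Dazl (234 ± 252), and none of their 20 probe sets was above the floor on all 3 arrays. Without replicate 2, Asz1 was above it (1 of 15), and with a fixed signal of 200 there were 5. Whether their promoters were methylated in these cells was not measured.

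No probe set of any pathway list was called in limma between replicate 1 and the others. On MOE430B no probe set of the array was called at all, so this shows nothing about the lists there. On MOE430A calls were rare over the whole array, so their absence from short lists says little. Cell type markers checked the label. All 11 fibroblast and mesenchyme markers were above the floor, with Vim (149376 ± 17104), Col1a2 (145435 ± 24758), Sparc (109530.0 ± 10908) and Col1a1 (106848 ± 26287) among them. Of pluripotent cell markers 2 of 10 were, Esrrb (721 ± 138, counted by another probe set) and Fgf4 (1179 ± 92.1), and Dppa4 (519.9 ± 159), Dppa5a (387 ± 133) and Nanog (91.6 ± 47.5) were among those that were not. Macrophage markers counted in 2 of 5 cases, Lyz2 (2029.8 ± 579.8) and Csf1r (1860 ± 144), and Adgre1 (652 ± 26.3), Cd68 (739.7 ± 38.0) and Ptprc (89.2 ± 80.6) did not. Of endothelial markers 1 of 4 did, Kdr (1407 ± 199.9), and Cdh5 (419.6 ± 90.9), Pecam1 (141 ± 40.3) and Tek (214 ± 169) did not. Of epithelial markers 2 of 4 did, Krt8 (1502 ± 391) and Epcam, the latter through another probe set than the one valued here (62.1 ± 22.5), and Cdh1 (50.2 ± 32.0) and Krt18 (739 ± 97.5) did not. Their part in the member values was not tested.

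**Figure D4:**
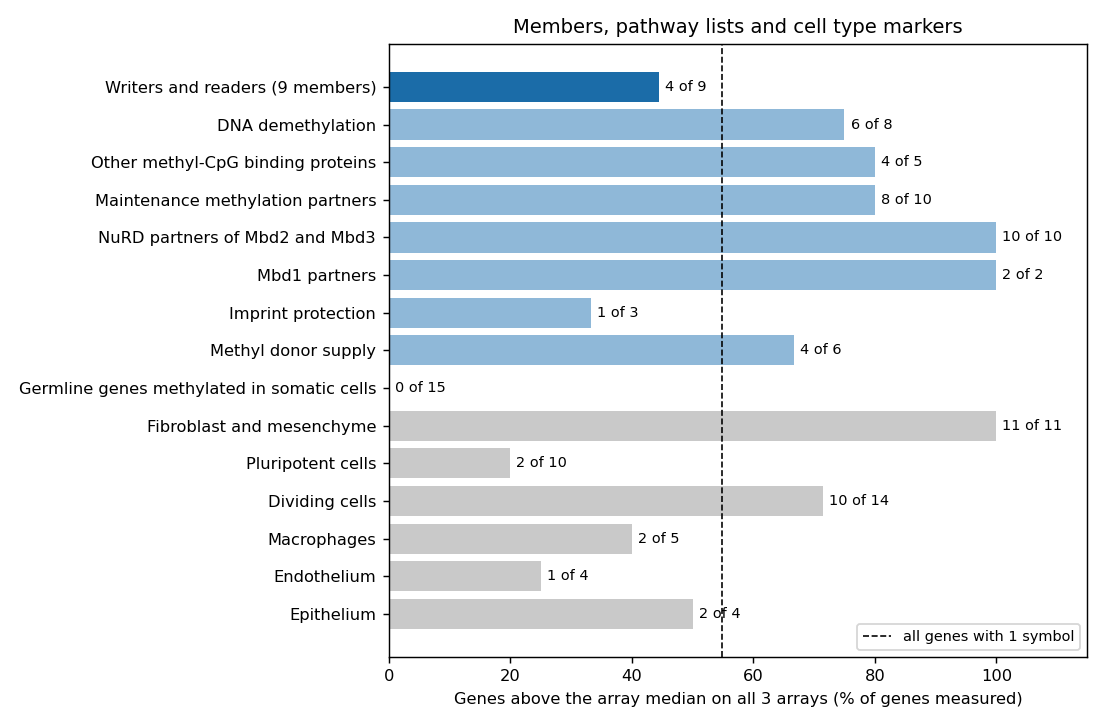
Share of the measured genes of each list that were above the array median on all 3 arrays by any probe set. Bars are members (dark blue), pathway lists (light blue) and cell type markers (grey), with counts at their ends; the dashed line is the 54.8% over all genes. The members stand at 4 of 9, the NuRD partners at 10 of 10 and the germline genes at 0 of 15.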

How the data were processed

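Signal intensities on a linear scale were deposited as 1 column per array, and the submitters' processing notes name MAS5. For the MAS5 version and settings, the sources used here give nothing. The mean signal after trimming 2% of probe sets at each end was 1500.5 on each MOE430A array and 1500.2 on each MOE430B array, so each had been scaled to 1 target. The types were scaled separately and were kept apart. Other deposited values are the instrument records, from which the station and shared scan days were taken. The 64 control probe sets of each type were left out. Names came from GEO's platform annotation, updated by gene identifier against RefSeq (20351 of 20380 MOE430A and 14486 of 14661 MOE430B probe sets with 1 symbol matched). Listed genes without a named probe set do not enter the counts. No coordinate is given for probe sets.

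Limma (3.58.1, R 4.3.3) was run on log2(signal + 16), with lmFit and eBayes over all probe sets of a type whose mean log2 signal exceeded the mean log2 median. This scale understates the change of dim genes. The code was tested on simulated data (20 draws with 200 changed probe sets, variances from the fitted prior). The number of arrays limits the precision. All members are named with all probe sets. In each other list the rule names up to 4 genes of highest signal above the floor, the first 3 by alphabet not above it, and any called; a gene's value is its brightest MOE430A probe set, or that on MOE430B where it has none. Members and lists were chosen with earlier results of these data known. Alternatives were another floor, pseudocount, filter, scaling, variance trend and leaving out each replicate.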

Additional observations from a re-analysis of the deposited data

How the results depend on the processing

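With the 75th percentile as the floor, member genes above it fell to 1 and member probe sets to 1, and with a fixed signal of 200 they came to 8 and 14. Leaving out 1 replicate gave 4 to 5 genes and 6 to 7 probe sets, and the tryptophan control and the first probe set of each gene gave the same 4 genes as the median. Of the other lists, demethylation came to 3, the Mbd1 partners to 1 and methyl donor supply to 2 with the 75th percentile, and imprint protection to 2 and Trdmt1 to 1 with a signal of 200. The number of MOE430A probe sets that limma called between replicate 1 and the others was 0 without a filter or with quantile normalization, 12 with each array centred on its median and 167 with an eBayes trend, beside 78; the cause was not tested. Member probe sets called were 0 under each of these, and 0 on MOE430B. Centring shifted the median difference of all MOE430B probe sets tested from 0.03 to 0.13. The Mbd3 difference had the other sign without replicate 2 (-0.073; -0.073 to 0.34 over both omissions), and the signs of the other 6 tested probe sets held under each alternative. The members' median SD was 0.32 to 0.36 from pairs of arrays and 0.39 to 0.54 under other pseudocounts and quantile normalization. No paired analysis was possible because the array types carry different probe sets and are not compared, and each holds 1 group. Signals near the background of an array limit what can be said of the 18 probe sets not above the floor.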
